A study of Mus musculus with 4 samples.

Results

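Type I interferon stimulated genes are the genes that a cell switches on when interferon alpha or beta reaches it. The list described here holds 49 of them, chosen by gene symbol. The count tables had a row for 47 of these among 32285 genes; Mx1 and Mx2, the classical antiviral dynamin-like GTPases, were not analysed here. Ifi47, an interferon-inducible GTPase, had 0 UMIs (unique molecular identifiers, each standing for 1 captured transcript) in every library. It is annotated on the same strand as Olfr56, which it overlaps, and the part of that overlap in the 0 was not tested. The other 46 members had UMIs in all 4 libraries.

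The immune cells came from subcutaneous MC38 tumours, a transplanted mouse colorectal carcinoma line, grown in 8-week-old mice, and were sorted as CD45+ before droplet capture with 3′ UMI counting. Mice labelled Trim25 cKO, a conditional knockout of the E3 ubiquitin ligase TRIM25, which is known for its action on the viral RNA sensor RIG-I, gave the libraries cKO-1 and cKO-2. WT mice gave WT-1 and WT-2. The series title places the deletion in T cells; neither Cre driver nor allele was named in the labels, and nothing says that libraries of 1 genotype came from separate animals, so every p-value measures only the spread between these libraries. Of 40890 barcodes 39906 were kept as cells, between 8205 and 12092 a library, with a median of 7795.5 to 10017 UMIs per kept cell. Between 42 and 59 barcodes were shared by any pair of libraries. In spite of the CD45+ sort, fibroblast-like cells made up 4.81% and 1.50% of kept cells in cKO, against 0.695% and 1.36% in WT.

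Cells were clustered without the members and named from marker genes, giving 16 classes; a class name means that the clusters resemble that cell type. "All T cells" below pools the 3636 cells named CD8 T cells, CD4 conventional T cells and Treg. It leaves out 2139 cells of T or NK clusters that matched no class, and another 3285 cells stayed unnamed, so the name does not cover every T cell in the libraries. Levels are CPM, the UMIs of a gene per 1000000 UMIs of that class in that library, and since 3′ counts carry no length scale they are compared between classes and genotypes, not between genes. Fewer cells carrying a transcript and fewer transcripts per cell cannot be told apart in such sums. In the sums of all T cells, Trim25 itself stood at 50.2 and 44.7 CPM in cKO-1 and cKO-2, against 64.7 and 62.3 CPM in WT-1 and WT-2. The groups did not overlap, but the difference of -0.40 ± 0.11 (log2, SE) had an adjusted p of 0.352 by edgeR's quasi-likelihood test; a 3′ count that lies outside a deleted exon would not report the deletion. The lower level was not shown to be particular to T cells. Of the 16 classes, 8 had both cKO libraries below both WT libraries for Trim25: CD8 T cells, Treg, gamma-delta T cells, NK cells, cDC1, macrophages (154 and 176 CPM in cKO, against 176 and 191 CPM in WT), monocytes (253 and 276 CPM in cKO, against 280 and 285 CPM in WT), and mast cells and basophils (33.7 and 41.9 CPM in cKO, against 66.1 and 65.0 CPM in WT). In B cells both cKO libraries were higher, at 172 and 160 CPM, against 143 and 141 CPM in WT, and in the other 7 classes, CD4 conventional T cells among them, the genotypes overlapped.

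As background, interferon alpha and beta bind the receptor IFNAR1/IFNAR2, which activates JAK1 and TYK2. These kinases act on STAT2, which works together with IRF9 at the interferon-stimulated response element in the promoters of target genes. In tumours, dendritic cells and other myeloid cells are known both to make type I interferon and to respond to it. The members cover regulators of the response (Irf7, Irf9, Stat2 and the brake Usp18), RNA-binding IFIT proteins, the OAS family, whose enzymes activate RNase L, the ubiquitin-like protein ISG15 with the ligase Herc6, antiviral enzymes such as viperin (Rsad2), DNA sensors of the AIM2-like family with the Z-nucleic acid sensor Zbp1, Schlafen proteins, PARP and ubiquitin enzymes, nuclear body proteins, and membrane or secreted proteins such as tetherin (Bst2).

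Many members sit side by side in the genome. On mm10 coordinates, 9 members lie on chromosome 11 with the 4 Schlafen genes among them, 6 on chromosome 5 (all Oas and Oasl genes), 6 on chromosome 19 (5 Ifit genes and Ms4a4a) and 5 on chromosome 1 (4 AIM2-like genes and Sp100). Several such neighbours are close copies of each other, and 9 members shared more than 10% of the 31-base words in the last 500 bases of their transcripts with another gene. The share was 86.4% for Ifi211, mostly with Ifi205, 70% for Oas1a, mostly with Oas1g, 55.7% for Phf11b, 45.1% for Oas1g, 29.6% for Ifit1bl1, 28.1% for Oas3, 24.0% for Ifit3, 18.5% for Ifi204 and 11.3% for Slfn8. Values of these members are uncertain to the extent that the counting split or dropped shared reads. Ifi211, Irf9 and Rtp4 also overlap another gene on the same strand.

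The promoters of 4 members on which the results below turn are shown because they carry the letters GAAANNGAAA, the core of the interferon-stimulated response element, and that of Slfn4 because it holds no match. Capitals mark the matches, read on either strand, so that a match on the opposite strand shows its reverse complement; overlapping matches merge into 1 run. Each window runs from 250 bases before to 50 bases after a transcription start and is given 5′ to 3′ on the gene's strand, from RefSeq on GRCm38.p6.
Isg15, chr4:156200769-156201068, minus strand: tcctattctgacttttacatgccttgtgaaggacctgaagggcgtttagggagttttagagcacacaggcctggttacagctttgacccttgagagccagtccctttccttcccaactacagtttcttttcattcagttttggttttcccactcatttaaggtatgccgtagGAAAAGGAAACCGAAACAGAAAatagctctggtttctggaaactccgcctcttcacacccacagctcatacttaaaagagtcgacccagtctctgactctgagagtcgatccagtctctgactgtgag
Ifit3, chr19:34583279-34583578, plus strand: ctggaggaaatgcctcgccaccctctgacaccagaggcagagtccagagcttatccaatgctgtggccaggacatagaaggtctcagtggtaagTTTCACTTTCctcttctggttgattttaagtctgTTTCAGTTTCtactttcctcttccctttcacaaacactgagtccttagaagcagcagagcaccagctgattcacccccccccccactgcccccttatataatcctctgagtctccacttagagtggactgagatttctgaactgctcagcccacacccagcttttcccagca
Ifi211, chr1:173912997-173913296, minus strand: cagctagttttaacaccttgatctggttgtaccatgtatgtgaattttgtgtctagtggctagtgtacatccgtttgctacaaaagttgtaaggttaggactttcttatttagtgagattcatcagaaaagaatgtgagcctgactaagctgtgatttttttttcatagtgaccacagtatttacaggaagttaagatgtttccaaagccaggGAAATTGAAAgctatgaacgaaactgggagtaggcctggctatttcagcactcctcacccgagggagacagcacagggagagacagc
Rsad2, chr12:26456403-26456702, minus strand: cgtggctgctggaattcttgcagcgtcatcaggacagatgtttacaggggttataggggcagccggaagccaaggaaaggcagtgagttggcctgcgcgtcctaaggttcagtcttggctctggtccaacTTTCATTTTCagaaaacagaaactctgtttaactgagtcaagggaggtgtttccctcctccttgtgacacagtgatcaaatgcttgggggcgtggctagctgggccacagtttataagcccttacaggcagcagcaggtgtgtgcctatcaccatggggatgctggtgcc
Slfn4, chr11:83174936-83175235, plus strand: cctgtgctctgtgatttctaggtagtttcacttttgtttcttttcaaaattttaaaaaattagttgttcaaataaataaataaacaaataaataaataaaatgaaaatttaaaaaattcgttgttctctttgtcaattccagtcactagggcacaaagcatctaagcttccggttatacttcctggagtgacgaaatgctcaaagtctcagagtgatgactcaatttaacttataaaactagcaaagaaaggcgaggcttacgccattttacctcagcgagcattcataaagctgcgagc
Isg15 held 3 overlapping matches, Ifit3 held 2, and Ifi211 and Rsad2 held 1 each. Of the 39 members with a RefSeq promoter window 18 (46.2%) held a match in at least 1 window, against 1079 of 27025 genes (3.99%) overall. Counted by promoter, 20 of 48 member windows (41.7%) and 1131 of 32851 windows overall (3.44%) held it. A match is a run of letters and not a measured binding site, and its absence from a window says nothing about other windows.

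The summed level of the members was highest in monocytes and neutrophils, and lay at the low end in NK cells and in mast cells and basophils. In monocytes the members summed to 21849 and 26285 CPM in the cKO libraries and to 26424 and 26725 CPM in the WT libraries, a mean of 25321 ± 2322 CPM (SD, n = 4 libraries of both genotypes, as in all means over classes below). Neutrophils followed at 23662 ± 4731 CPM, with 20883 and 30439 CPM in cKO and 20003 and 23325 CPM in WT. They rested on 35 to 95 shallow cells a library, with a median depth of 2355 to 2804 UMIs. The ranges of these 2 classes overlapped. Next came cDC2 (conventional type 2 dendritic cells) at 17058 ± 1405 CPM, macrophages at 16984 ± 1762 CPM and non-classical monocytes at 15485 ± 2103 CPM. The 22 interferon gamma induced genes, taken up again below, had the same classes on top in the same order. They summed to 7267 ± 1047 CPM in monocytes, 5633 ± 1406 CPM in neutrophils and 4229 ± 633 CPM in cDC2. Macrophages held 3798 ± 519 CPM of them and non-classical monocytes 3336 ± 720 CPM, against 1466 ± 121 CPM in NK cells. The order of these top classes is thus not particular to the members, and which interferon acted was not tested.

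Among the lymphocyte classes, CD4 conventional T cells and Treg stood highest, although 1 cluster within the CD8 T cells, described below, reached 10750 ± 1017 CPM. CD4 conventional T cells summed to 10212 ± 1359 CPM and Treg to 9758 ± 506 CPM, against 6387 ± 281 CPM in CD8 T cells, 4848 ± 590 CPM in B cells and 3914 ± 196 CPM in NK cells. The dendritic classes differed widely, from cDC2 over cDC1 at 12006 ± 1812 CPM and pDC (plasmacytoid dendritic cells) at 7228 ± 967 CPM to migratory DC at 4536 ± 1049 CPM. Gamma-delta T cells held 7082 ± 873 CPM, fibroblast-like cells 5339 ± 498 CPM, and mast cells and basophils 4191 ± 1537 CPM. That last mean lies above NK cells only through cKO-1, with 6444 CPM from 24 cells: in the other 3 libraries mast cells and basophils were below NK cells, and without cKO-1 the means were 3440 CPM and 4003 CPM. Classes next to each other in this order overlapped in range, except after neutrophils, after Treg and after CD8 T cells. The macrophage value depends on how cells are grouped. It stood at 19520 CPM at a finer clustering and fell to 8822 CPM when the members were allowed among the clustering genes. In the latter setting 596 to 826 cells a library were named macrophages instead of 1836 to 2029. Only a cluster led by C1qa and Pf4 then held the name, and a cluster led by Itga9 and Mertk stayed unnamed.

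**Figure D1:**
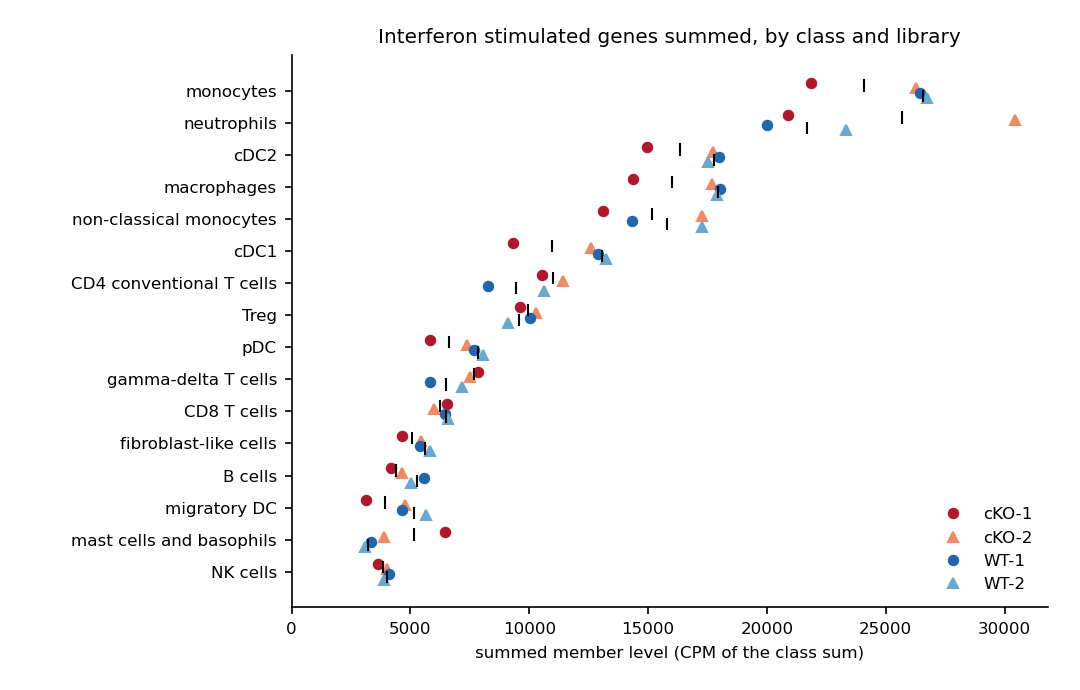
Summed CPM of the members (UMIs of all members per 1000000 UMIs of the class) for each of 16 cell classes, 1 point per library, cKO libraries above WT libraries, with bars at the genotype means. Monocytes and neutrophils lie at the high end, with means of 25321 and 23662 CPM, and NK cells and mast cells and basophils at the low end with 3914 and 4191 CPM.

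The members did not share 1 order of classes. Of the 46 with UMIs, 23 had their highest level in monocytes and 13 in neutrophils. Viperin (Rsad2), which makes an antiviral nucleotide, stood at 2552 ± 861 CPM in neutrophils against 1299 ± 159 CPM in monocytes, and Slfn4, a myeloid Schlafen gene, at 2430 ± 944 CPM against 1065 ± 72.2 CPM. The ranges of these 2 classes did not overlap for either gene. The 5 IFIT genes together reached 3145 ± 501 CPM in monocytes and 3108 ± 728 CPM in neutrophils, and stood at 262 ± 117 CPM in pDC and 220 ± 36.5 CPM in NK cells.

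Other members peaked outside the classes with the highest sums. Ifi205, an AIM2-like gene, reached 2706 ± 374 CPM in cDC1, where it made up 22.6% of all member UMIs. Bst2, which tethers budding virions and in mice is known as a pDC marker, stood at 871 ± 86.3 CPM in pDC, and Ifi44, a GTP-binding protein, at 354 ± 44.5 CPM in the same class. In pDC the members Ifit1, Ifit3, Ifit3b, Zbp1, Rtp4 and Xaf1 had their lowest level of any class, so pDC were at once highest in 2 members and lowest in 6. Ifi27l2a, a small interferon-induced protein of the ISG12 family, reached 2693 ± 187 CPM in Treg and made up 27.7% of their member UMIs, against 8.05% in macrophages. Without overlap in range, that was above CD4 conventional T cells at 1430 ± 175 CPM.

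The role groups follow the same split. The AIM2-like sensors with Zbp1 stood at 7151 ± 702 CPM in monocytes and 5199 ± 706 CPM in cDC1, but at 473 ± 27.8 CPM in NK cells. The 4 Schlafen genes reached 3921 ± 992 CPM in neutrophils and 2762 ± 221 CPM in monocytes, against 136 ± 9.76 CPM in NK cells. The regulators of the response spanned less, from 1265 ± 114 CPM in monocytes to 300 ± 11.7 CPM in B cells. Irf7, the factor that amplifies interferon production, was among them at 443 ± 55.0 CPM in monocytes and 395 ± 37.6 CPM in macrophages. The 5 membrane and secreted proteins had Treg on top at 3397 ± 187 CPM, followed by macrophages at 2511 ± 34.7 CPM. That order rests on Ifi27l2a: the other 4 summed to 704 ± 78.8 CPM in Treg and to 1158 ± 62.2 CPM in macrophages, where they were highest.

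**Figure D2:**
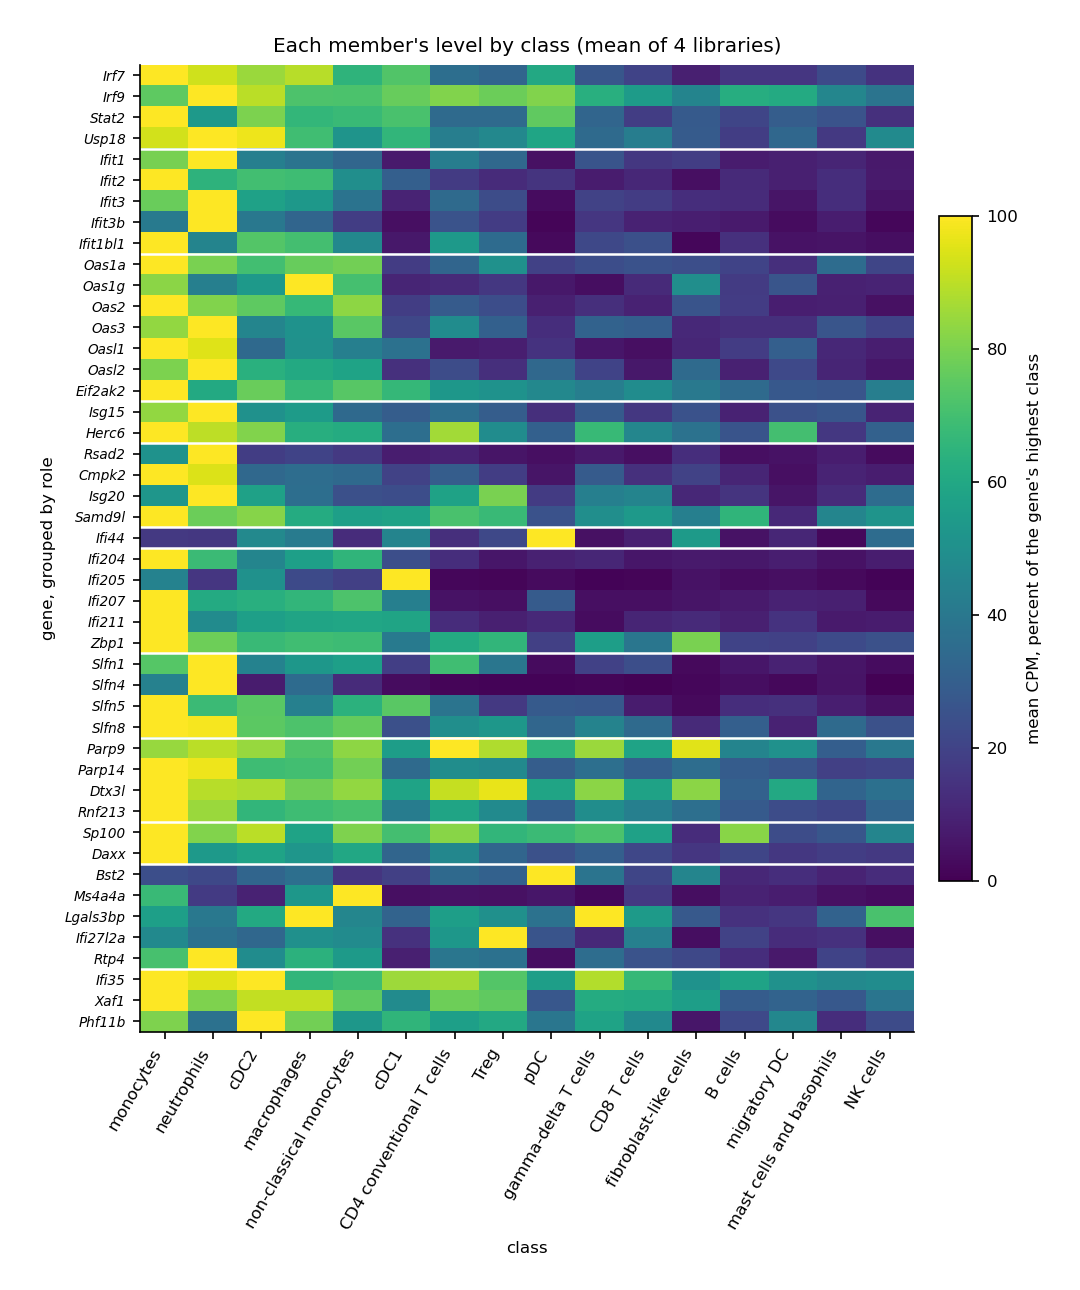
Heat map of the 46 members with UMIs (each line 1 gene, with white lines between role groups) over the 16 classes, coloured by the mean CPM of 4 libraries as a percent of the gene's highest class. Monocytes and neutrophils hold the top value for 36 members, while Ifi205 peaks in cDC1, Bst2 and Ifi44 in pDC and Ifi27l2a in Treg.

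Within a class the level differed from cluster to cluster. Monocytes fell into 3 clusters whose levels did not overlap. The first, led by Vcan and also by Cxcl10 and Il15, summed to 33577 and 37066 CPM in cKO and to 33767 and 36673 CPM in WT. The second, led by the inflammatory genes Thbs1, Ptgs2 and Il1a, held 23294 and 27007 CPM in cKO and 28803 and 25641 CPM in WT. The third, led by F13a1 and Hp, held 11281 and 12665 CPM in cKO and 12002 and 13674 CPM in WT. Genotypes overlapped within each cluster in these sums. The first cluster made up 21.4% and 26.4% of the monocytes in cKO, against 35.7% and 44.6% in WT, and the second 53.6% and 52.3% in cKO, against 40.3% and 29.4% in WT. The third overlapped between genotypes, at 25% and 21.3% in cKO and 24.0% and 26.0% in WT. Members such as Oasl1, Cmpk2 and Ifit2 are among the leading genes of the first cluster, and it was not tested against the others.

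The same held in macrophages and T cells. The largest macrophage cluster, led by Mertk and Itga9, averaged 19420 ± 1709 CPM, against 10845 ± 1111 CPM in the Gpnmb and Mmp12 cluster, 8944 ± 641 CPM in the C1q and Pf4 cluster and 8576 ± 615 CPM in the cycling cluster. The largest cluster made up 45.7% and 57.4% of macrophages in cKO, against 59.7% and 56.9% in WT, so that the genotypes overlapped and cKO-1 stood lowest. The cycling cluster made up 3.2% and 3.76% in cKO, against 0.906% and 2.56% in WT. Within the largest cluster the members summed to 16878 and 20211 CPM in cKO, against 20026 and 20564 CPM in WT, again with cKO-1 lowest. Among CD8 T cells, the Gzmk and Ccl5 cluster held 10750 ± 1017 CPM, the Pdcd1 cluster 5879 ± 160 CPM and the cycling cluster 4836 ± 755 CPM. NK clusters ran from 5656 ± 489 CPM, in the one led by Gzma and Klra8, to 2249 ± 428 CPM, in the one led by Gzmd, Gzme and Gzmf.

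To see which single cells hold the most member UMIs, each cell was thinned to 2000 UMIs. That left out 6763 shallower cells (1607 in cKO-1, 1190 in cKO-2, 1943 in WT-1 and 2023 in WT-2). Of the 33143 remaining cells, 3378 had 71 or more member UMIs, the 90th percentile, and 559 lay within 2 UMIs of that limit, which is a range of a score and not a cell type. Monocytes made up 59.6% of these high cells (2014 cells), macrophages 21.6% (731 cells) and cDC2 8.64% (292 cells), while 2.78% (94 cells) were droplets set aside as likely doublets, which are counted here but belong to no class. The share of monocytes that were high was 18.6% and 26.7% in cKO, against 26.5% and 30.5% in WT. Of macrophages 6.78% and 12.2% were high in cKO, against 13.7% and 14.0% in WT. In both classes cKO-1 stood lowest, and in monocytes cKO-2 lay inside the WT range. Thinning had left out 377 and 316 macrophages in cKO and 368 and 375 in WT. Of monocytes it left out 61 and 96 in cKO and 103 and 115 in WT. The macrophage shares thus describe the deeper cells only, and the C1q and Pf4 macrophage cluster had a median of 2223 UMIs.

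The median monocyte held 38 and 45 member UMIs per 2000 in cKO, against 46.5 and 47 in WT; without thinning, the medians scaled to 2000 UMIs were 36.3 and 43.9 in cKO, against 46.4 and 47.5 in WT. The median T cell held 14 and 13 in cKO, against 12 and 14 in WT. In neutrophils 27.5% ± 10.1 of cells were high (SD, n = 4), and in cDC2 11.2% ± 2.65, while in CD8 T cells it was 0.298% ± 0.272 and in NK cells 0.0613% ± 0.0711.

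**Figure D3:**
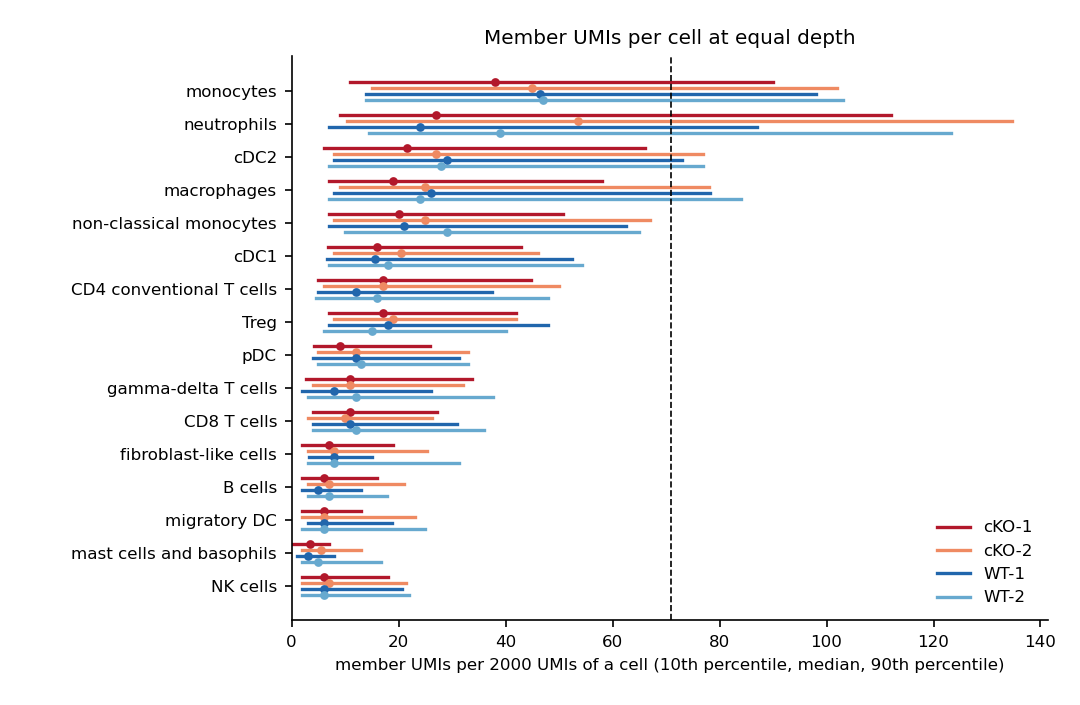
Member UMIs per cell after thinning to 2000 UMIs (median as point, 10th to 90th percentile as line) by class and library, cKO libraries above WT libraries; the dashed line marks the limit of 71 UMIs. Monocyte medians are 38 and 45 in cKO and 46.5 and 47 in WT.

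Members were high together in the same cells. The members were divided by odd and even places in alphabetical order, and the cells in the top 10% by the sum of 1 set were read for the other set. In every class and library with enough cells they held between 1.96 and 4.94 times the mean of the remaining cells of their class. The ratio was lowest in monocytes and highest in B cells. The 4.94 came from 30 B cells of WT-1, with a mean of 10.6 UMIs, against 2.14 in the rest. With the odd set picking the cells, the mean over libraries was 4.15 in macrophages and 3.78 in B cells. The part of differing clusters within a class, or of myeloid RNA in droplets, was not tested. These ratios describe cells of 1 library and are not a test. Over the 16 classes, the genes outside all lists whose log2 CPM followed the summed level most closely among 11537 genes were Chmp4b (Pearson's r = 0.904), Tor1aip1 (0.901), Ddx4 (0.899), Slc25a22 (0.898), Wfdc17 (0.895), Capza2 (0.894), Trim30c (0.889) and Sdcbp (0.887). Chmp4b is a subunit of the ESCRT-III membrane scission complex. Ddx4 lay near the floor, at 16.7 CPM in its highest class, macrophages, and 0 CPM in its lowest. All classes share the 4 libraries, and the correlation describes 16 points.

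The ligands themselves were close to absent from these counts. Of 20 type I and III interferon genes, 14 had 0 UMIs in all cells, and the other 6 together were dominated by Ifnb1, with 308 UMIs in 90 cells. Ifnb1 had 13 and 61 UMIs in cKO monocytes, against 15 and 5 UMIs in WT monocytes, and came from 7 and 17 cells in cKO and from 9 and 5 cells in WT. By edgeR the difference was 2.11 ± 0.67 (log2, SE) with an adjusted p of 0.947. In macrophages it had 23 and 32 UMIs in cKO, against 22 and 3 UMIs in WT (0.80 ± 0.66, edgeR adjusted p = 0.929). Fibroblast-like cells held 0 and 82 UMIs in cKO, against 0 and 6 UMIs in WT, of which 60 of the 82 came from 1 cell. A single cell can thus carry the value of a library.

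The comparison of the genotypes reads each member in cKO against WT cells of the same class. It called 4 pairs of a member and a class, 2 in B cells and 2 in pDC, each lower in cKO. By edgeR and by DESeq2, no member was called in any other class, T cells, NK cells, monocytes and macrophages included. Most members had fold changes below 0 in monocytes, macrophages and the dendritic classes, where cKO-1 was the lowest library for most of them, and above 0 in CD4 conventional and gamma-delta T cells. Each class was tested with edgeR's quasi-likelihood test on UMIs summed per library, with Benjamini-Hochberg adjustment over all genes tested and a threshold of 0.05.

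In monocytes 0 of 46 members were called, with 0% of 13383 genes called in all; 1 member and 4.49% of genes had an unadjusted p under 0.05, and DESeq2 called 0 members. The log2 fold change of cKO over WT was below 0 for 39 of 46 members with a median of -0.12, while 50.7% of all genes were below 0. Without cKO-1, 20 members were below 0 and the median was 0.02, and without WT-2 the median was -0.07. The shift of monocytes between their first and second cluster, given above, goes with these values, and its part was not tested. In macrophages 0 of 46 were called (0% of genes), 3 had an unadjusted p under 0.05 (5.44% of genes) and DESeq2 called 0; 42 were below 0 with a median of -0.15, against 48.7% of all genes, and without cKO-1 25 were below 0 with a median of -0.01. With members among the clustering genes, only a cluster led by C1qa and Pf4 was named macrophages. There 17 of 46 members were below 0 and the median was 0.04. Isg15 (0.14), Irf7 (0.30), Stat2 (0.03), Oasl1 (0.47), Ifi27l2a (0.14) and Zbp1 (0.20) were then above 0. The share of the largest macrophage cluster, lowest in cKO-1 as given above, moves with these values, and its part was not tested. cKO-1 was the lowest of the 4 libraries for 38 members in monocytes and 40 in macrophages.

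The named members show the same pattern in values. In monocytes Ifit2, which binds viral RNA, had 881 and 1181 CPM in cKO, against 1280 and 1320 CPM in WT (-0.31 ± 0.16, edgeR adjusted p = 0.999). Its neighbour Ifit1, which recognises RNA without a methylated cap, had 537 and 655 CPM in cKO, against 724 and 772 CPM in WT (-0.31 ± 0.14, adjusted p = 0.999). Both were lower in both cKO libraries, with cKO-1 farthest. Isg15 had 550 and 703 CPM in cKO, against 636 and 681 CPM in WT, and Irf7 had 381 and 505 CPM in cKO, against 415 and 469 CPM in WT. In both genes the genotypes overlapped.

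Other monocyte members were Ifit1bl1 with 333 and 357 CPM in cKO, against 360 and 486 CPM in WT, and Usp18, the protease that removes ISG15 and blocks the receptor, with 224 and 265 CPM in cKO, against 279 and 302 CPM in WT. Daxx had 237 and 293 CPM in cKO, against 315 and 317 CPM in WT, and Ifi44 had 53.9 and 53.6 CPM in cKO, against 51.3 and 77.7 CPM in WT. These 4 had differences of -0.28 to -0.23 (log2), and none passed the test. Stat2 had 391 and 458 CPM in cKO, against 502 and 469 CPM in WT. Ifit3, Rsad2, Oasl1, Slfn1, Bst2, Ifi27l2a and Zbp1 overlapped between genotypes.

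Macrophages had their largest differences in Ifit2, with 594 and 809 CPM in cKO, against 899 and 917 CPM in WT (-0.38 ± 0.15, edgeR adjusted p = 0.908), and in the exonuclease Isg20, with 96.2 and 127 CPM in cKO, against 129 and 158 CPM in WT (-0.37 ± 0.15, adjusted p = 0.908). Ms4a4a, a membrane protein of the MS4A family, averaged 49.4 ± 0.528 CPM in cKO and 62.6 ± 1.81 CPM in WT (SD, n = 2 each), with the lowest unadjusted p of the macrophage members and an edgeR adjusted p of 0.890. Slfn4 and Ifi205 were lower in both cKO libraries (-0.33 ± 0.15 and -0.32 ± 0.15), and Ifit3b overlapped. Over all 46 members tested in macrophages, 14 had both cKO values below the WT values and 1 had both above, against 16.2% and 19.1% of genes tested; in monocytes the counts were also 14 and 1, against 18.4% and 13.3% of genes. Of Isg15, Ifit3, Irf7, Stat2, Rsad2, Oasl1, Slfn1, Bst2, Ifi27l2a and Zbp1, only Rsad2 had no overlap between genotypes in macrophages, at 378 and 545 CPM in cKO, against 559 and 553 CPM in WT.

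**Figure D4:**
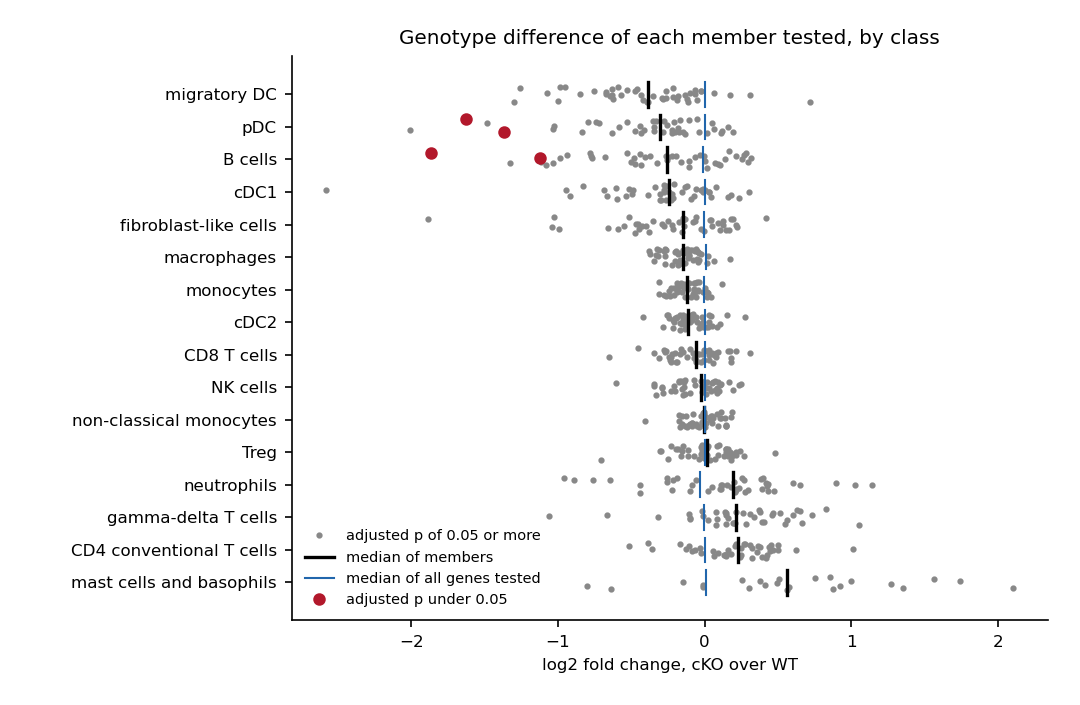
Log2 fold change of cKO over WT for every tested member by class (1 grey point per member; large red points passed the adjusted threshold of 0.05; black bars mark the median of the members and blue bars that of all genes tested). The 4 red points are Slfn4 and Ifi211 in B cells and Ifit3 and Rtp4 in pDC, and monocyte and macrophage members lie mostly below 0.

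In T cells, where the series title places the deletion, members lay as often above 0 as below. In all T cells 0 of 46 members were called (0.00822% of genes), 2 had an unadjusted p under 0.05 (7.41% of genes) and DESeq2 called 0; 23 members were above 0 and 23 below, with a median of 0.00. The members summed to 7764 and 7321 CPM in cKO, against 7401 and 7669 CPM in WT. Isg15 had 164 and 163 CPM in cKO, against 151 and 176 CPM in WT. The 2 members under an unadjusted 0.05 were Oas2, with 11.8 and 13.7 CPM in cKO, against 17.9 and 17.6 CPM in WT (-0.45 ± 0.17, edgeR adjusted p = 0.550), and Oasl2, with 76.9 and 66.6 CPM in cKO, against 83.8 and 91.1 CPM in WT (-0.27 ± 0.12, adjusted p = 0.618). Irf7 was higher in both cKO libraries, at 116 and 118 CPM in cKO, against 101 and 104 CPM in WT (0.21 ± 0.10, adjusted p = 0.722), and Zbp1 likewise (0.19 ± 0.10). Ifit3, Rsad2 and Ifit2 were lower in both.

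CD8 T cells had 0 of 46 called (0.0353% of genes), 4 under an unadjusted 0.05 (7.65% of genes), all lower in cKO, and 0 by DESeq2, with a median of -0.06 (0.02 with doublets kept). Slfn5, of the Schlafen family, had the largest difference, at 69.9 and 56.7 CPM in cKO, against 91.2 and 109 CPM in WT (-0.66 ± 0.14, edgeR adjusted p = 0.147). It overlaps the antisense gene Slfn5os, and the labels do not state whether the counting used strand. The other 3 under 0.05 were Oasl2 (-0.34 ± 0.13), Ifit2 (-0.31 ± 0.13) and Ifi211 (-0.28 ± 0.12), and Oas2 stood at -0.46 ± 0.25. The cells also lay in different clusters by genotype. The Gzmk and Ccl5 cluster, with the highest members' sum of the 3 CD8 clusters, made up 28.4% and 15.5% of CD8 T cells in cKO, against 34.6% and 37.1% in WT, and the Pdcd1 cluster 52.5% and 62.0% in cKO, against 48.5% and 41.0% in WT. Within the Gzmk and Ccl5 cluster the members summed to 9956 and 11484 CPM in cKO, against 9796 and 11763 CPM in WT, and the genotypes overlapped. Within the Pdcd1 cluster they summed to 5777 and 5746 CPM in cKO, against 5894 and 6100 CPM in WT, without overlap. The part of these shares in the CD8 values was not tested. NK cells had 0 of 46 called (0% of genes), 6 under 0.05 (5.90% of genes), all lower in cKO, 0 by DESeq2 and a median of -0.02. Ifit1 in NK cells had 47.4 and 52.8 CPM in cKO, against 68.2 and 62.9 CPM in WT (-0.35 ± 0.11, edgeR adjusted p = 0.638), and Ifit2, Ifit3b, Cmpk2 and Slfn5 were lower in both cKO libraries as well.

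The remaining lymphoid classes differed in direction. Treg had 0 of 44 called (0.119% of genes), 2 under 0.05 (5.92% of genes), 0 by DESeq2 and a median of 0.02. CD4 conventional T cells had 0 of 44 called (0.464% of genes) and 0 by DESeq2, but 12 under an unadjusted 0.05, all higher in cKO, against 8.26% of genes; 34 of 44 were above 0 with a median of 0.23. The median was 0.04 with doublets kept, 0.10 at the finer clustering, 0.15 without cKO-2 and 0.02 without WT-1. The summed level (log2 of cKO over WT) was 0.22, and 0.04 with doublets kept and 0.07 at the finer clustering. Ifi44, named after its values were seen, led them with 52.2 and 76.6 CPM in cKO, against 33.1 and 30.9 CPM in WT (1.01 ± 0.26, edgeR adjusted p = 0.0610). WT-1 was the lowest library for 34 of those members, and without WT-2 the test called 7, with 0.605% of genes called (53 of 8756). Summed over 7 monocyte markers, these cells held 1041 and 1197 CPM in cKO, against 748 and 941 CPM in WT; their part in the result was not tested. Gamma-delta T cells had 0 of 41 called (0% of genes), 9 under 0.05 (7.01% of genes) with 7 of them higher, 0 by DESeq2, and 33 above 0 with a median of 0.22 (0.09 without WT-1).

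In the remaining myeloid and other classes 0 members were called by edgeR and 0 by DESeq2. In cDC2 (0.00856% of genes called) 36 of 46 were below 0 with a median of -0.11, and 1 had an unadjusted p under 0.05 (6.24% of genes). In cDC1 (0% of genes) 36 of 45 were below 0 with a median of -0.24, and 6 were under 0.05 (2.93% of genes). In migratory DC (0.0242% of genes) 41 of 45 were below 0 with a median of -0.39, and 11 were under 0.05 (4.80% of genes), all lower in cKO. Without cKO-1 the medians of these 3 classes were 0.01, -0.02 and -0.10, and without cKO-2 the test called 11 members in migratory DC, where it then called 1.28% of genes (110 of 8586). Without WT-2 the migratory DC median was -0.22, and without WT-1 that of cDC2 was -0.07. Non-classical monocytes (0% of genes) had a median of -0.01 with 0 under 0.05 (3.98% of genes). Neutrophils (0%) had a median of 0.19 with 3 under 0.05 (7.19% of genes), fibroblast-like cells (0%) a median of -0.15 with 5 (6.36%), and mast cells and basophils (0%) a median of 0.56 over 23 tested members with 4 (7.67%). The neutrophil median was -0.07 without cKO-2, 0.04 without WT-1, 0.12 with doublets kept and 0.07 at 10% mitochondrial UMIs. The fibroblast-like median was -0.04 without cKO-1, -0.07 without WT-2 and 0.21 at 10% mitochondrial UMIs, and that of mast cells and basophils was 0.10 without cKO-1.

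B cells held 2 of the 4 calls. Slfn4 had 34.1 and 41.4 CPM in cKO, against 192 and 87.4 CPM in WT (-1.86 ± 0.30, edgeR adjusted p = 0.0288), and Ifi211, the AIM2-like gene whose promoter is printed above, had 90.3 and 136 CPM in cKO, against 284 and 211 CPM in WT (-1.13 ± 0.20, adjusted p = 0.0356). Both were lower in both cKO libraries. In all, 2 of 45 members were called against 0.322% of genes (28 genes, 27 of them lower in cKO), and 13 were under an unadjusted 0.05 against 10.1% of genes, all lower in cKO; 32 members were below 0 with a median of -0.25. The count was between 3 and 10 with any 1 library left out (1.08% to 3.33% of genes called) and 10 without the filter on low counts (1.45% of genes), and the median was -0.17 without WT-2 and at 10% mitochondrial UMIs. Isg15 had 38.5 and 62.5 CPM in cKO, against 87.2 and 105 CPM in WT, with an edgeR adjusted p of 0.115.

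Monocyte and macrophage markers were also lower in both cKO libraries in B cells. The 7 monocyte markers summed to 1073 and 1415 CPM in cKO, against 1906 and 2106 CPM in WT, and the 8 macrophage markers to 439 and 605 CPM in cKO, against 1400 and 609 CPM in WT, with none of these 15 markers at 0. Neutrophil markers overlapped between genotypes, at 17.0 and 6.32 CPM in cKO and 15.6 and 22.2 CPM in WT. Slfn4 and Ifi211 had far higher levels in monocytes than in B cells, at 1065 ± 72.2 and 2029 ± 187 CPM. The part of myeloid RNA in the B cell calls was not tested. The Slfn4 call was lost with DESeq2 (-1.88, adjusted p = 0.0997) and at a limit of 10% mitochondrial UMIs (-1.07, edgeR adjusted p = 0.0906). In B cells DESeq2 still called 2 members (0.334% of genes), and so did the 10% limit (0.684% of genes). A member other than Slfn4 and Ifi211 was thus called in each of these settings. The Ifi211 call was lost without cKO-1 (-0.86, edgeR adjusted p = 0.0727) and with doublets kept (-1.02, adjusted p = 0.0691). Over all 13 alternatives the fold change lay between -2.31 and -1.07 for Slfn4 and between -1.44 and -0.86 for Ifi211.

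pDC held the other pair. Ifit3, which in humans stabilises IFIT1 on RNA, had 20.7 and 15.4 CPM in cKO, against 45.9 and 63.5 CPM in WT (-1.63 ± 0.27, edgeR adjusted p = 0.0263), and Rtp4, a chaperone of G protein-coupled receptors that binds viral RNA, had 13.01 and 16.1 CPM in cKO, against 41.5 and 37.5 CPM in WT (-1.37 ± 0.26, adjusted p = 0.0460). Both were lower in both cKO libraries, and pDC had the lowest mean level of both genes among all classes. In all, 2 of 44 members were called against 0.457% of genes (44 of 9627), 12 were under an unadjusted 0.05 against 8.21% of genes, all lower in cKO, and 37 were below 0 with a median of -0.31 (-0.11 without cKO-1). DESeq2 called 1 member, the test without the filter called 9 (1.40% of genes), and with 1 library left out it called 3 to 5 (0.538% to 1.72% of genes).

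Macrophage markers were again lower in both cKO libraries, at 221 and 189 CPM in cKO pDC, against 415 and 825 CPM in WT pDC. Within each genotype Ifit3 ranked the libraries as these markers did, and Rtp4 the other way. Neutrophil markers stood at 5.36 and 8.81 CPM in cKO, against 17.3 and 13.1 CPM in WT. Both lists had all markers detected, and their part in the result was not tested. The Rtp4 call was lost with DESeq2 (-1.38, adjusted p = 0.0968), without cKO-2 (-1.57, edgeR adjusted p = 0.0777), with a crossed replicate block (-1.40, adjusted p = 0.0856), with members among the clustering genes (-0.98, adjusted p = 0.105) and with doublets kept (-0.36, adjusted p = 0.955). The Ifit3 call was lost without cKO-2 (-1.40, edgeR adjusted p = 0.105) and with doublets kept (-1.23, adjusted p = 0.471), and its fold change lay between -1.96 and -1.23 over all 13 alternatives.

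**Figure D5:**
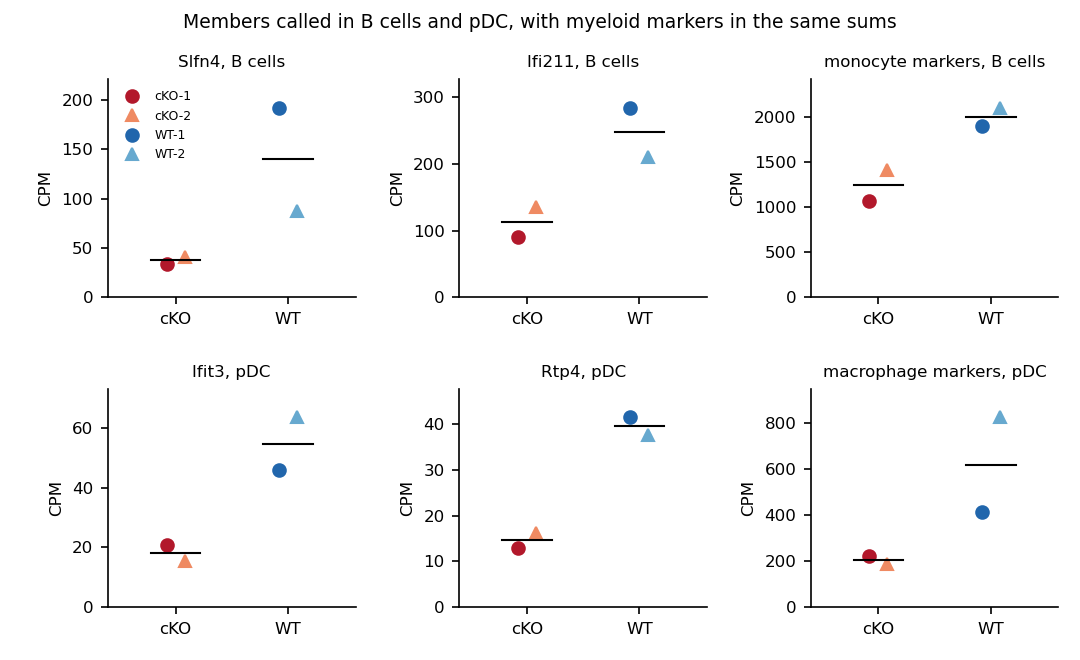
CPM of Slfn4, Ifi211 and the summed monocyte markers in B cells (top) and of Ifit3, Rtp4 and the summed macrophage markers in pDC (bottom), 1 point per library, cKO left of WT, with horizontal bars at the means. In every panel both cKO libraries lie below both WT libraries, for example 34.1 and 41.4 CPM against 192 and 87.4 CPM for Slfn4.

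Other genes of the pathway gave little more. Of the 12 receptor and signalling genes, the sensors and adaptors and the 22 interferon gamma induced genes listed, none was called in any class other than B cells. There Cxcl10, the chemokine that draws CXCR3+ T cells, had 97.7 and 209 CPM in cKO, against 551 and 391 CPM in WT (-1.61 ± 0.26, edgeR adjusted p = 0.0288), and the GTPase Iigp1 had 4.44 and 9.12 CPM in cKO, against 24.9 and 45.5 CPM in WT (-2.39 ± 0.43, adjusted p = 0.0362). They are 2 of the 16 interferon gamma induced genes tested there; 11 of the 16 were below 0. Of all genes tested in B cells 0.322% were called, 27 of 28 lower in cKO, and the 7 monocyte markers stood at 1073 and 1415 CPM in cKO, against 1906 and 2106 CPM in WT; their part in these calls was not tested. In monocytes 14 of 19 of that list, 8 of 12 receptor genes and 12 of 15 sensors and adaptors were below 0, with medians of -0.09, -0.08 and -0.10.

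Whether the genotype effect differed between classes was tested with library as a term. For all T cells minus monocytes 0 of 46 members were called (0.0359% of genes) and 4 were under an unadjusted 0.05 (5.43% of genes), with a median difference of 0.13. For all T cells minus macrophages 0 were called (0% of genes) and 6 were under 0.05 (6.35%), with a median of 0.14. For all T cells minus NK cells 0 were called (0.0156%) and 5 were under 0.05 (7.90%), with a median of 0.03. For monocytes minus macrophages 0 were called (0.0926%) and 3 were under 0.05 (7.26%), with a median of 0.05. By edgeR, then, no member's genotype effect was called different between these classes, and DESeq2 was not run for this test. An exact permutation test of 2 libraries against 2 cannot give a p below 0.333, so the summed levels are given as values only. In 5 classes both cKO libraries lay below both WT libraries in summed level (monocytes, macrophages, cDC1, pDC and B cells), in gamma-delta T cells and mast cells and basophils both lay above, and in the other 9 the genotypes overlapped. The macrophage difference of -0.17 (log2 of cKO over WT) turned to 0.07 with members among the clustering genes, at 9042 CPM in cKO and 8603 CPM in WT. Only a cluster led by C1qa and Pf4 was then named macrophages, so that value describes a different set of cells. In the main clustering the C1q and Pf4 cluster held 8530 and 9899 CPM in cKO, against 8663 and 8683 CPM in WT. cKO-1 had the lowest sum in 10 of the 16 classes.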

How the data were processed

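Libraries were made with the Chromium 3′ v3 kit, per the labels' protocols, and the submitters' processing notes name Cell Ranger, STAR and mm10, without versions. The deposited barcodes are 20 bases long, longer than the cell barcode of that kit, and the labels do not say how they were made. The deposited values are raw UMI counts per gene and cell barcode, 96751399 to 127449324 a library, and their number limits precision. Nothing else was normalised by the authors in these files.

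Kept barcodes had 300 or more genes, 500 or more UMIs and up to 15% mitochondrial UMIs. Scrublet's automatic threshold marked 0 or 1 cell a library, so cells scoring above 0.2 (0.987% to 1.86%) were set aside, together with each cluster whose median score exceeded 0.1, as mixed droplets; they enter no class but count among the kept cells. Cells were clustered with scanpy 1.11.5 (2000 variable genes without members or pathway lists, 30 components, 15 neighbours, Leiden resolution 1) and named from marker scores of at least 0.5 with a margin of 0.2; the margin and the doublet rule were set after the scores were seen. UMIs were summed per library and class, in classes with at least 20 cells a library, and cKO was tested against WT with edgeR 4.0.16 in R 4.3.3 (quasi-likelihood test, TMM, filterByExpr, Benjamini-Hochberg over all genes tested), checked on simulated data. DESeq2 1.42.0 and the other alternatives are given in the closing section. Between pairs of libraries, a chi-square statistic on UMIs pooled over cells was 44.6 to 107 per degree of freedom. It treats the UMIs of 1 cell as independent, so it cannot separate library differences from the sampling of cells.

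The members and lists were chosen with earlier results of these data known. Members named with values are those called in a class, 10 fixed members (Isg15, Ifit3, Irf7, Stat2, Rsad2, Oasl1, Slfn1, Bst2, Ifi27l2a and Zbp1) and the 6 with the largest fold change in T, CD8 T and NK cells, monocytes and macrophages.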

Additional observations from a re-analysis of the deposited data

Results flagged for a closer look

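The summed level of the members differed in direction between classes. Both cKO libraries lay below both WT libraries in monocytes (-0.14, log2 of cKO over WT), macrophages (-0.17), cDC1 (-0.25), pDC (-0.25) and B cells (-0.26), and above them in gamma-delta T cells (0.24) and in mast cells and basophils (0.68). With members among the clustering genes the macrophage difference turned to 0.07 (9042 CPM in cKO, 8603 CPM in WT). Only a cluster led by C1qa and Pf4 was then named macrophages, so that value describes a different set of cells. These opposite directions between classes were not tested against each other. In the other 9 classes the genotypes overlapped, and all classes share the same 4 libraries. With 2 libraries against 2, such a separation cannot give an exact permutation test p below 0.333. Gamma-delta T cells held 38 to 128 cells a library, and mast cells and basophils 24 to 41.

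The members called in B cells and pDC also had the opposite direction elsewhere. Ifi211, lower in cKO in B cells, was higher in both cKO libraries in gamma-delta T cells (0.55) and in mast cells and basophils (0.95). Slfn4, lower in cKO in B cells, was higher in both cKO libraries in neutrophils (0.88). Rtp4, lower in cKO in pDC, was higher in both cKO libraries in CD4 conventional T cells (0.26), CD8 T cells (0.16), gamma-delta T cells (0.17) and mast cells and basophils (0.715). These differences between classes were not tested either, and they were picked from among all classes. Of all genes tested, 13.3% in monocytes and 19.1% in macrophages had both cKO libraries above both WT libraries. No such share is given for the classes named here, so these values are not set apart from other genes. The neutrophil value rests on 35 to 95 shallow cells a library.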

How the results depend on the processing

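No called member changed direction under the alternatives run, but uncalled differences did. Fold changes were recomputed for the 4 called pairs and for the 10 fixed members in all T cells, monocytes and macrophages. Of these 34, 19 had the other sign in at least 1 alternative. Among them were Oasl1 (-0.17, turned to 0.47) and Irf7 (-0.06, turned to 0.30) in macrophages with members among the clustering genes. In that setting only a cluster led by C1qa and Pf4 was named macrophages, so a different set of cells was compared. The summed level (log2 of cKO over WT) turned from -0.17 to 0.07 in macrophages with members among the clustering genes, from -0.15 to 0.22 in fibroblast-like cells at 10% mitochondrial UMIs and from -0.06 to 0.02 in CD8 T cells with doublets kept, and in all T cells it stayed within 0.05 of 0. In CD4 conventional T cells it was 0.22, and 0.04 with doublets kept and 0.07 at resolution 2. Of the recomputed counts of called members, summed levels and shares of high cells, 347 stayed close to the reported value and 61 moved. In B cells (2 called) they were 10 without a filter on low counts (1.45% of all genes called in that fit), 4 with doublets kept (0.330%) and 3 to 10 with 1 library left out (1.08% to 3.33%). In pDC (2 called) they were 9 without the filter (1.40%), 1 with DESeq2 (0.457%), 0 with doublets kept, 1 with members among the clustering genes (0.652%), 4 at 10% mitochondrial UMIs (1.03%) and 3 to 5 with 1 library left out (0.538% to 1.72%). Without the filter, 1 member each was called in CD8 T cells (1.07%), cDC1 (0.165%) and fibroblast-like cells (0.574%), 2 each in mast cells and basophils (0.576%) and migratory DC (0.361%), and 1 each in the differences of all T cells (0.534%) and of monocytes (0.836%) against macrophages. With 1 library left out, the count ran from 0 to 7 in CD4 conventional T cells (7 without WT-2, 0.605% of genes), 0 to 11 in migratory DC (11 without cKO-2, 1.28% of genes), 1 to 4 in mast cells and basophils (0.581% to 2.34%), 0 to 3 in gamma-delta T cells (3 without WT-2, 0.932%) and in the difference of all T cells and monocytes (3 without cKO-2, 0.339%), 0 to 2 in neutrophils (2 without cKO-2, 1.08%) and fibroblast-like cells (2 without cKO-2, 0.879%), and 0 to 1 in CD8 T cells (1 without WT-1, 1.65%) and cDC1 (1 without cKO-2, 0.137%). The lone library of a genotype is then assumed to vary like the other group. The cause of these moves was not tested.

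Same-numbered libraries did not deviate together (correlation -0.143 in monocytes to 0.0698 in Treg), and nothing in the labels pairs them. With the replicate number as a block 5 members were called in B cells (0.921% of all genes), 6 in pDC (1.23%), 3 in migratory DC (0.497%) and 1 each in CD4 conventional T cells (0.858%), CD8 T cells (1.94%) and neutrophils (0.776%). With the numbers crossed, an alternative chosen after seeing the data, the replicate block called 10 in B cells (1.62% of all genes) and 1 each in pDC (0.312%), CD8 T cells (0.998%) and fibroblast-like cells (0.1%).

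Summed levels with doublets kept were 5849 CPM in B cells, 5522 in CD8 T cells, 4139 in NK cells, 11042 in Treg and 9585 in gamma-delta T cells. With members among the clustering genes they were 7086 in all T cells, 9942 in gamma-delta T cells and 8822 in macrophages; at 10% mitochondrial UMIs 7055 in all T cells and 4794 in fibroblast-like cells; and at resolution 2 19520 in macrophages and 18719 in non-classical monocytes. At the 95th percentile 13.5% of monocytes and 5.98% of macrophages were high. CD4 conventional T cells gave no value with members among the clustering genes or at 10% mitochondrial UMIs. Neutrophils held a median of 2355 to 2804 UMIs per cell, and mast cells and basophils 24 to 41 cells a library, which limits what their sums can show.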
